A study of Mus musculus with 12 samples.

Results

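The aminoacyl-tRNA synthetases were compared between mouse megakaryocytes given dexamethasone and the same cultures given vehicle. The set comprised 39 listed genes, namely 20 enzymes of the cytosol, 16 of the mitochondrion and 3 genes of the complex that holds several of the cytosolic enzymes together. A gene was read from a probe set carrying its symbol and no other, and where several existed the brightest over all 12 arrays was to be taken. Each member turned out to have a single probe set, so measured levels decided no choice. In all, 37 of the 39 genes were measured, among 30142 named genes on the array. Aars, the cytosolic alanine enzyme, shares its probe set with Exosc6 and is given no value, and Dars, the cytosolic aspartate enzyme, was not analysed here. The list was drawn up with results of these arrays already known, so its counts are descriptions and carry no test over the list.

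Each synthetase attaches 1 amino acid to its tRNAs, the step that sets which amino acid a codon is read as. Animal cells keep a set encoded for the cytosol and another, also encoded in the nucleus and imported, for the translation of mitochondrial genes, and in mammals the glycine and lysine enzymes come from genes that serve both compartments. Several cytosolic enzymes sit in the multisynthetase complex on the scaffold proteins encoded by Aimp1, Aimp2 and Eef1e1. Many cytosolic synthetase genes are known targets of ATF4, the transcription factor that answers amino acid shortage and stress in the endoplasmic reticulum. Megakaryocytes make large amounts of protein for the granules and surface of platelets.

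The cells were differentiated in culture from bone marrow hematopoietic stem cells of male C57BL/6 mice, with thrombopoietin at 100 ng per ml for 3 days, an overnight step in medium with 10% charcoal-stripped serum, and purification at day 4 on an albumin gradient. Each culture was then divided, 1 portion receiving 100 nM dexamethasone, a synthetic glucocorticoid, and the other its vehicle, both for 6 h. There were 6 arrays per treatment, and culture 1 to 6 here is the labels' replicate number, shared by both arrays of a culture. The labels also carry a culture number of their own, which is 1, 4, 5, 6, 7 and 8 for replicates 1 to 6. All samples share the strain, the sex and the differentiation, and the sources used here do not say how many mice gave each culture, so p-values measure the spread between these cultures.

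Values are log2 as deposited, with array medians between 5.57 and 5.67. Probe sets for negative controls gauge background. Their median per array was 6.15 to 6.39 and their 95th percentile 9.98 to 10.39. Of 13 megakaryocyte markers 11 were measured, and all 11 lay above that percentile on all 12 arrays. The glucocorticoid targets Tsc22d3 and Fkbp5 differed by 2.48 and 2.37 on the log2 scale (adjusted p = 7.49e-08 and 7.52e-07), higher in 6 of 6 cultures. Over 24265 genes tested with limma, culture as a block and Benjamini-Hochberg adjustment, 4.56% were lower and 7.39% higher in dexamethasone at an adjusted p under 0.05, the threshold used throughout. The share of calls that were higher was 61.9% on the deposited values, 70.3% with array medians subtracted and 44.9% with quantile normalization.

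The start sites of 13 cytosolic, 14 mitochondrial and 3 scaffold genes were in a RefSeq table of promoters for the mouse build GRCm38.p6, each window running from 250 bases before the start to 50 bases after it. The windows below are shown because they hold the core of the C/EBP-ATF response element, the DNA element that ATF4 binds with C/EBP partners, and because 2 of these genes passed the threshold and 2 did not. The core was searched as TGATGNAA on both strands, and it is in capitals. Positions count from the start site. In Iars (chr13:49681880-49682179, plus strand) the core begins at base 8, in Tars (chr15:11399609-11399908, minus strand) at base -15, in Gars (chr6:55037751-55038050, plus strand) at base -30, all 3 on the reverse strand, and in Yars (chr4:129189653-129189952, plus strand) at base 4 on the forward strand.
Iars: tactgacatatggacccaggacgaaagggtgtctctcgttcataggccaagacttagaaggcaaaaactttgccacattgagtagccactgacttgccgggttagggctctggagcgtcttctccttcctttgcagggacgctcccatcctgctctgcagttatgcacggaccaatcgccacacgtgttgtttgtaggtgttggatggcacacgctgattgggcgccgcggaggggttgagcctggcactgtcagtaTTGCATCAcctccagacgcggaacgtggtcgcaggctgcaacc
Tars: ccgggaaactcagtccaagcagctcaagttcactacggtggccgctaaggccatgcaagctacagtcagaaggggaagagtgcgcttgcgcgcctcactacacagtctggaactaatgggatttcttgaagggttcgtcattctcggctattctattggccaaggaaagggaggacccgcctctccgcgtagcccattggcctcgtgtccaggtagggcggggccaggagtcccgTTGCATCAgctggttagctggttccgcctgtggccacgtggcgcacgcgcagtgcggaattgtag
Gars: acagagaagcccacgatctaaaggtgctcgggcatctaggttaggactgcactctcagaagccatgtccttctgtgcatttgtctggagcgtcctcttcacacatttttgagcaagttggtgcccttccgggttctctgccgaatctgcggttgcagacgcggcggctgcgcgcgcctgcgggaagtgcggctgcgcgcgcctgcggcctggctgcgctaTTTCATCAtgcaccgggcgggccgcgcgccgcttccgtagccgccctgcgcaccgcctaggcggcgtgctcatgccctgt
Yars: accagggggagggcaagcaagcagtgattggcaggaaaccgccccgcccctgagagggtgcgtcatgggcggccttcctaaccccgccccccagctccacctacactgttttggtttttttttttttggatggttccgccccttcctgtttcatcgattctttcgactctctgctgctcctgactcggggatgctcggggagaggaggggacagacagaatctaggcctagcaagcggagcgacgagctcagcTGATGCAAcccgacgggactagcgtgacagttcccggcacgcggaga

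In these windows the core was present for 5 of 13 cytosolic genes (Aars, with 2 matches, and the 4 shown), for 0 of 14 mitochondrial genes and for 0 of 3 scaffold genes. It was present for 4.51% of all 27025 genes with promoters and in 3.97% of all 32851 promoter windows. The E-box CACGTG, to which MYC and its partners bind, was present for 4 of 13 cytosolic genes (Aars, Farsb, Iars and Tars), 1 of 14 mitochondrial genes (Ears2) and 0 of 3 scaffold genes. It was present for 8.09% of all genes and in 7.15% of all windows, and it shares no base with the capitals. The palindromic glucocorticoid response element was in none of the members' windows and in 0.009% of all. A match is a description of letters, and none of these factors was measured on the DNA. Of the genes shown, Iars and Tars fell in dexamethasone, while Yars and Gars did not pass the threshold. The windows of Eprs and Mars1, which also fell, hold no core. Nars, Lars and Rars fell too and had no window here, while Aars and Dars have windows but no level.

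The cytosolic enzymes were on balance lower after 6 h of dexamethasone. Of 18 measured, all of which passed the filter on dim genes, 7 fell, 11 did not pass and 0 rose (limma), a share of 38.9% lower against 4.56% of all genes tested. At an unadjusted p under 0.05, 11 were lower and 1, Qars, was higher. The estimates were below 0 for 17 of the 18, against 13179 of all 24265 genes tested. With array medians subtracted it was 13 of the 18, and likewise 13 in the fits without culture 1 or without culture 5. The median estimate of the 18 was -0.23 on the log2 scale, against -0.01 for all genes tested, and the estimates ran from -0.47 for Tars to 0.15 for Qars. Changes were thus modest, and the enzymes that fell were at 72.2 to 83.3% of their vehicle level on the deposited scale. In RNA from whole cultures, fewer cells of a type and less RNA per cell cannot be told apart.

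**Figure D1:**
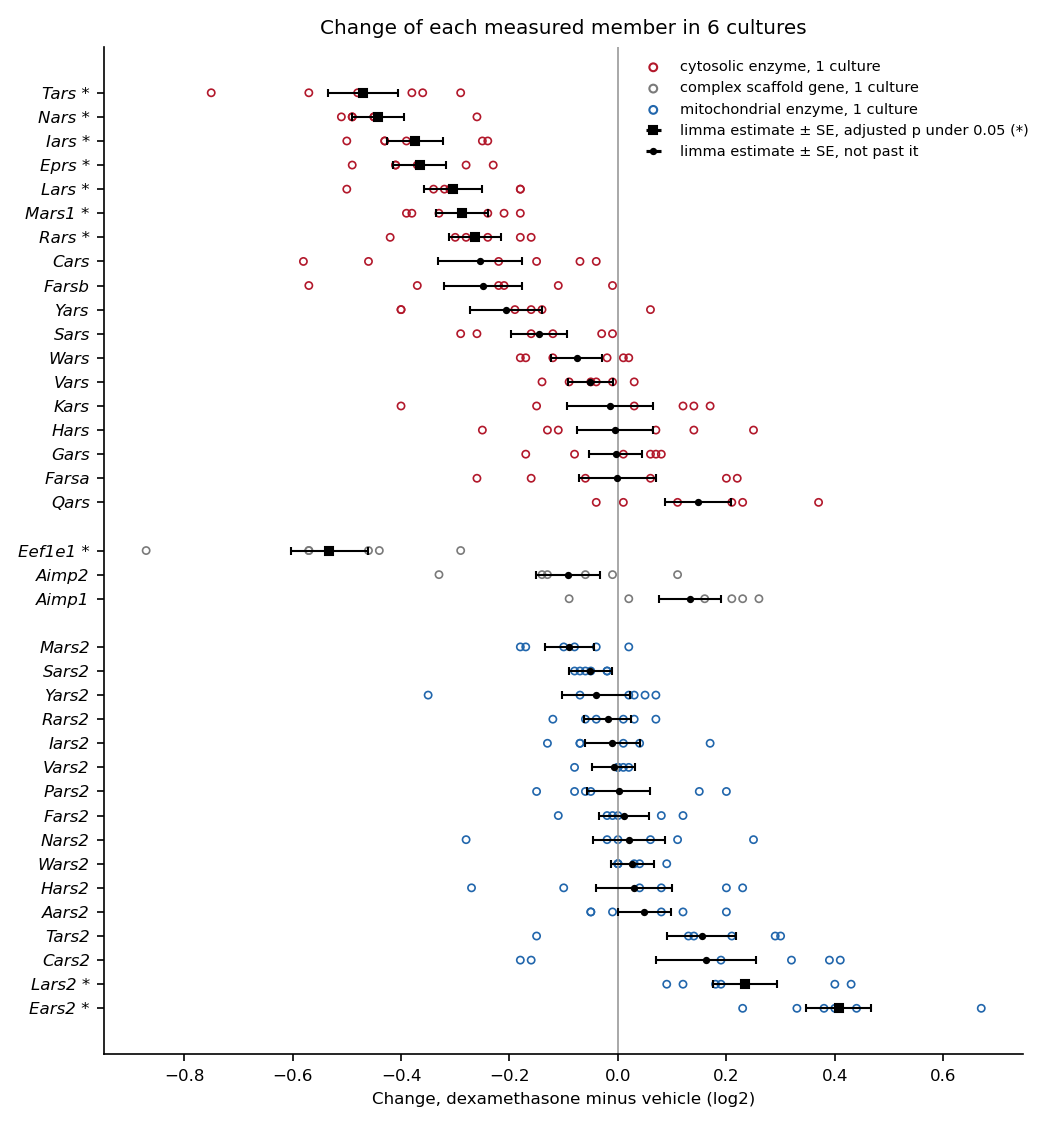
Change of each of the 37 measured members, dexamethasone minus vehicle in log2 units, with 1 open circle per culture and the limma estimate ± SE in black, where squares and asterisks mark members past the threshold. The 7 cytosolic enzymes past it lie between -0.47 and -0.26, and the 2 mitochondrial ones at 0.23 and 0.41.

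Among enzymes of the multisynthetase complex, 5 of 7 measured fell, or 71.4%, against 4.56% of all genes tested. Eprs joins the glutamate and the proline enzyme in a single protein. Its vehicle arrays ran from 11.88 to 12.19 with a median of 12.08, and its dexamethasone arrays from 11.51 to 11.81 with a median of 11.65. The groups did not overlap, and the difference was -0.37 (SE 0.05, adjusted p = 0.00151), lower in 6 of 6 cultures. Groups that do not overlap with dexamethasone lower were seen for 5 of 18 cytosolic enzymes, against 2.63% of all genes tested.

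Iars, the isoleucine enzyme, ran from 10.20 to 10.54 with a median of 10.34 in vehicle and from 9.76 to 10.07 with a median of 10.03 in dexamethasone. The groups did not overlap, with the lowest array that of culture 6 in dexamethasone, and the difference was -0.37 (SE 0.05, adjusted p = 0.00177). Mars1, the methionine enzyme, which also charges the initiator tRNA, ran from 8.87 to 9.18 with a median of 8.95 in vehicle and from 8.58 to 8.79 with a median of 8.73 in dexamethasone. Its groups did not overlap either, and the difference was -0.29 (SE 0.05, adjusted p = 0.00528). Lars is the leucine enzyme and in human cells also a leucine sensor for the growth kinase mTORC1. It ran from 11.32 to 11.76 in vehicle with a median of 11.45 and from 11.04 to 11.42 in dexamethasone with a median of 11.16.

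The Lars groups overlapped only through the dexamethasone array of culture 5, at 11.42. Within cultures the change was -0.50 to -0.18, and the difference was -0.30 (SE 0.05, adjusted p = 0.00687). Rars, the arginine enzyme, ran from 12.06 to 12.38 with a median of 12.29 in vehicle and from 11.89 to 12.08 with a median of 12.00 in dexamethasone. Only vehicle culture 2 lay within the dexamethasone range. Rars fell by 0.26 (SE 0.05, adjusted p = 0.00845) and its call ended, at an adjusted p of 0.0513, when unnamed and control probe sets entered the fit (range 0.00121 to 0.0513 over 18 other settings). Iars, Mars1, Lars and Rars were each lower in 6 of 6 cultures.

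The other 2 measured enzymes of the complex did not pass. Qars, the glutamine enzyme, was 9.50 ± 0.14 in vehicle and 9.65 ± 0.07 in dexamethasone (SD, n = 6), a difference of 0.15 (SE 0.06) with a limma adjusted p of 0.159, higher in 5 of 6 cultures. Its estimate was the highest of the 18. Kars, the lysine enzyme, was 11.19 ± 0.23 and 11.18 ± 0.13 (SD, n = 6), with a limma adjusted p of 0.928. Its culture changes ran from -0.40 in culture 1 to 0.17 in culture 6, so the cultures did not share a direction.

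Outside the complex, 2 of 11 measured enzymes fell, or 18.2%, against 4.56% of all genes tested. Tars, the threonine enzyme, had the lowest estimate of the 18. Its vehicle arrays ran from 10.13 to 10.52 with a median of 10.27, and its dexamethasone arrays from 9.66 to 10.02 with a median of 9.84. The groups did not overlap, the difference was -0.47 (SE 0.06, adjusted p = 0.0018), and the level in dexamethasone was 72.2% of vehicle. Nars, the asparagine enzyme, ran from 13.26 to 13.64 with a median of 13.53 in vehicle and from 12.94 to 13.19 with a median of 13.05 in dexamethasone. The groups did not overlap, and the difference was -0.44 (SE 0.05, adjusted p = 0.000477). Both were lower in 6 of 6 cultures, and so were Cars, Farsb and Sars, which did not pass. A fall in 6 of 6 cultures was seen for 10 of 18 cytosolic enzymes, against 8.32% of all genes tested.

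**Figure D2:**
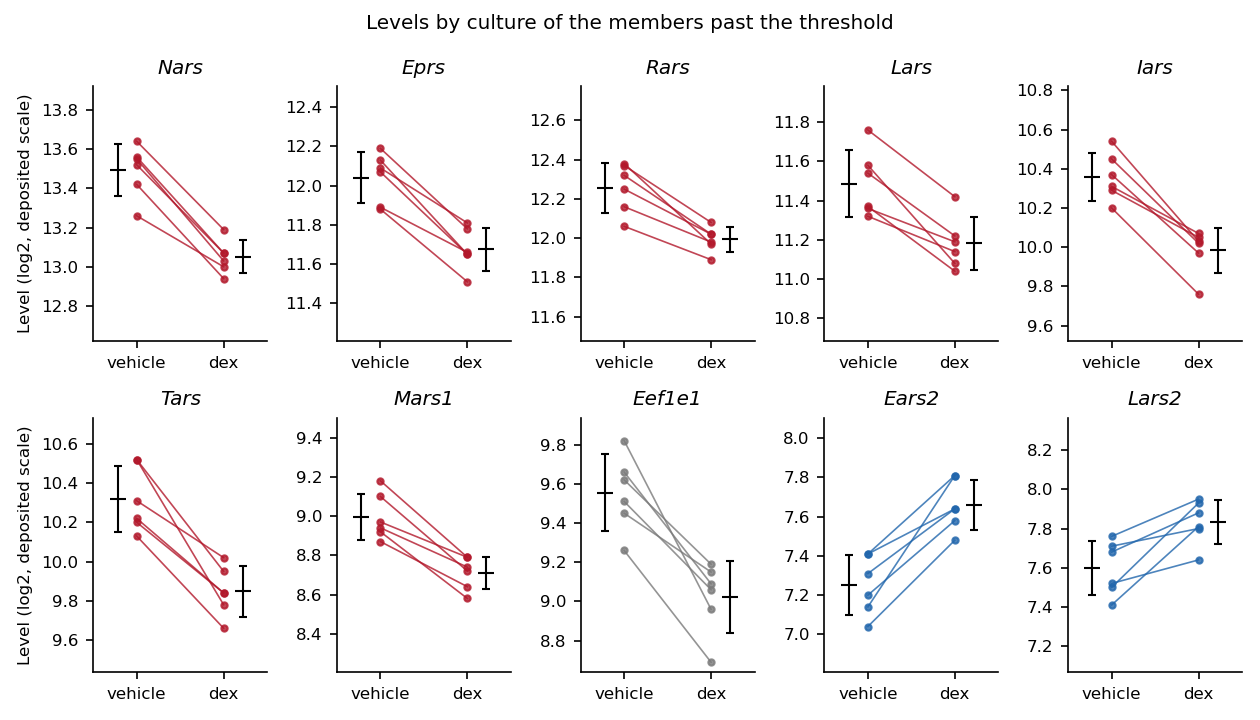
Deposited log2 level of the 10 members past the threshold, with a line joining both arrays of each culture and the mean ± SD of 6 arrays beside each group, on axes of equal span. Every line falls for the 7 cytosolic enzymes (red) and for Eef1e1 (grey), and every line rises for Ears2 and Lars2 (blue).

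Cars, Farsb, Yars and Sars, the enzymes or subunits for cysteine, phenylalanine, tyrosine and serine, had estimates of -0.25, -0.25, -0.21 and -0.15. Their adjusted p was 0.0706, 0.0589, 0.081 and 0.111, and all 4 passed after quantile normalization. Farsa and Farsb encode the subunits of the same enzyme, yet their estimates stood apart. Farsa was 9.34 ± 0.22 in vehicle and 9.34 ± 0.10 in dexamethasone (SD, n = 6), lower in 3 of 6 cultures, and Farsb was 9.94 ± 0.19 and 9.69 ± 0.12, lower in 6 of 6. The difference between the subunits was not tested.

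Gars encodes the glycine enzyme of both compartments and did not pass. It ran from 13.50 to 13.60 with a median of 13.55 in vehicle and from 13.38 to 13.66 with a median of 13.56 in dexamethasone. Its estimate was -0.0044 (SE 0.05, adjusted p = 0.965), and over 18 other settings it stayed between -0.06 and 0.03. Hars, the histidine enzyme, was 10.31 in both groups, with culture changes from -0.25 to 0.25. Wars, the tryptophan enzyme, also known for its induction by interferon gamma, was 7.97 ± 0.12 and 7.90 ± 0.07 (SD, n = 6), and Vars, the valine enzyme, was 7.11 ± 0.04 and 7.06 ± 0.05. None of Hars, Wars and Vars passed under any of the 18 other settings.

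The scaffold genes did not move as a unit. Eef1e1, which encodes the smallest of the scaffold proteins (AIMP3), ran from 9.26 to 9.82 with a median of 9.57 in vehicle and from 8.69 to 9.19 with a median of 9.08 in dexamethasone. The groups did not overlap, and the difference of -0.53 (SE 0.07, adjusted p = 0.00157) was the lowest estimate of the 37 members, lower in 6 of 6 cultures and -0.87 in culture 1. Eef1e1 lay above the 95th percentile of negative controls on 0 arrays and below their median on 0. Aimp1, the source of the cytokine EMAPII, was 10.25 ± 0.08 and 10.38 ± 0.16 (SD, n = 6), with a limma adjusted p of 0.175. Aimp2, a scaffold that binds the lysine enzyme, was 8.76 ± 0.09 and 8.67 ± 0.12, with a limma adjusted p of 0.354.

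The mitochondrial enzymes showed no such fall. Of 16 measured and tested, 2 rose, 14 did not pass and 0 fell (limma), and none was lower at an unadjusted p under 0.05 either. The share that rose, 12.5%, compares with 7.39% of all genes tested. The median estimate was 0.02, and 6 of the 16 were below 0. Their levels were low, with a median of 7.51 against 10.13 for the cytosolic enzymes. On all 12 arrays, 7 of the 18 cytosolic enzymes and 0 of the 16 mitochondrial ones lay above the 95th percentile of negative controls. Signal level thus differed with compartment, and its part in the contrast was not tested. Mars1, Ears2 and Lars2, which passed the threshold, lay above that percentile on 0 arrays and below the median negative control on 0. Aars2 and Vars2, for alanine and valine, were dimmer than the median negative control on each of the 12 arrays, and Pars2, for proline, on 8 of them, so for these 3 a fall may not be measurable. In a fit of the 13050 genes that lay above that median on at least 6 arrays, 34 of them members, 9.48% were lower and 16.8% higher, and there the counts were 10 of 18 cytosolic enzymes lower and 2 of 13 mitochondrial enzymes higher.

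Ears2 attaches glutamate in mitochondria and, in mammals, charges the mitochondrial glutamine tRNA with glutamate as well. Its vehicle arrays ran from 7.04 to 7.41 with a median of 7.26, and its dexamethasone arrays from 7.48 to 7.81 with a median of 7.64. The groups did not overlap, the difference was 0.41 (SE 0.06, adjusted p = 0.0027), and all 6 cultures were higher, culture 3 most, by 0.67. It passed under all 18 other settings. Qrsl1, Gatb and Gatc encode the enzyme that turns that glutamate into glutamine, and their estimates were 0.01, -0.06 and 0.12, none past the threshold. Qrsl1 was dimmer than the median negative control on 12 arrays and Gatb on 7, so a change of these may not be measurable.

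Lars2, the mitochondrial leucine enzyme, ran from 7.41 to 7.76 with a median of 7.60 in vehicle and from 7.64 to 7.95 with a median of 7.84 in dexamethasone. The groups overlapped, the difference was 0.23 (SE 0.06, adjusted p = 0.0345), and all 6 cultures were higher. This call was lost under 8 of 18 other settings, among them the fit without the culture block and those without culture 1, 2, 3, 5 or 6, with adjusted p between 0.0164 and 0.182 over the 18. Tars2 and Cars2, for threonine and cysteine, had estimates of 0.15 and 0.16 (limma adjusted p = 0.161 and 0.299), and Tars2 passed in the fit without culture 1, where its culture change was -0.15. The remaining 12 had estimates between -0.09 and 0.05.

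Enzymes that charge the same amino acid in the 2 compartments could be set side by side for 15 amino acids, in 16 pairs, since Eprs pairs with both Ears2 and Pars2 and both subunits of the phenylalanine enzyme pair with Fars2. These are differences between changes, not between levels. The estimate of the cytosolic enzyme was the lower in all 16 pairs (15 of 16 in the fits without culture 1 or without culture 4), and in 11 of them it was so in each of the 6 cultures. The gap was widest for glutamate, -0.77 ± 0.20 between Eprs and Ears2 (SD, n = 6), then for threonine, -0.63 ± 0.12, leucine, -0.54 ± 0.11, and asparagine, -0.46 ± 0.15. It was narrowest for Farsa against Fars2, -0.01 ± 0.19, then for histidine, -0.04 ± 0.07, and in both the sign varied between cultures. No test was run on the pairs, and the part of signal level in the gaps was not tested.

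**Figure D3:**
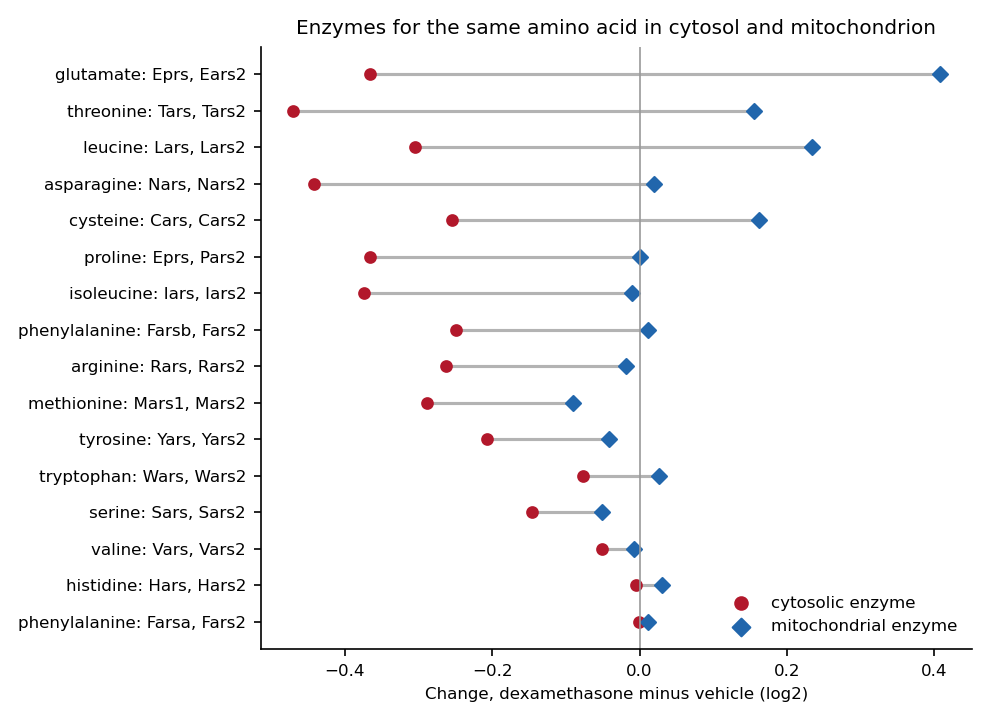
Limma estimates of the change, dexamethasone minus vehicle in log2 units, for cytosolic (red circle) and mitochondrial (blue diamond) enzymes of the same amino acid, 16 pairs ordered by the gap. The red circle lies left of the blue diamond in all 16 pairs, by 0.77 for glutamate and 0.01 for Farsa and Fars2.

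The cytosolic enzymes that fell were also grouped by what is known of their genes. Of 11 measured enzymes whose genes are known to be induced through ATF4 in other mouse cells, 6 fell (Eprs, Iars, Lars, Mars1, Nars and Tars), with a median estimate of -0.29. Of the 7 others measured, Rars fell, with a median of -0.01. Gars belongs to the first list and did not pass. By catalytic fold, 4 of 9 class I and 2 of 8 class II enzymes fell, with medians of -0.25 and -0.08, and Eprs, which holds both folds, fell as well. The shares that fell were 54.5% and 14.3% by the ATF4 list and 44.4% and 25% by class, against 4.56% of all genes tested. These divisions were made with the results known and were not tested.

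Other genes of tRNA use and amino acid supply were read from the same fit. Of 12 measured genes of tRNA export, maturation, elongation and proofreading, 3 fell and 0 rose (limma, with 0 higher at an unadjusted p under 0.05). Over all genes tested 4.56% were lower and 7.39% higher. Xpot, the exporter of tRNAs from the nucleus, fell from 9.74 ± 0.15 to 9.29 ± 0.12 (SD, n = 6, limma adjusted p = 0.00171), in 6 of 6 cultures. Ssb, the La protein that binds new tRNA transcripts, fell by 0.25 (SE 0.05, adjusted p = 0.0095), and Trnt1, which adds the CCA end, fell by 0.16 (SE 0.04, adjusted p = 0.0437). The elongation factors Eef1a1 and Eef2, which bring charged tRNAs to the ribosome and move it along, had estimates of 0.03 each and did not pass.

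Of 25 tested genes of the ATF4 arm and amino acid response, 8 fell and 3 rose, shares of 32% and 12% against 4.56% lower and 7.39% higher over all genes tested. The mitochondrial folate enzyme Mthfd2, the leucine transporter Slc7a5, the cationic amino acid transporter Slc7a1 and the asparagine synthetase Asns differed by -0.58, -0.57, -0.52 and -0.49, with limma adjusted p of at most 0.00378, each lower in 6 of 6 cultures. Slc3a2, whose protein pairs with that of Slc7a5, rose by 0.88 (SE 0.06, adjusted p = 3.65e-05). Atf4 itself was 9.25 ± 0.16 and 9.13 ± 0.07 (SD, n = 6, limma adjusted p = 0.288), lower in 4 of 6 cultures. Of 10 growth regulators 4 rose, against 7.39% of all genes tested, and 0 fell (limma, with 0 lower at an unadjusted p under 0.05). Ddit4 rose most, by 1.83 (SE 0.06, adjusted p = 3.46e-07). The others were Myc, by 0.38 (SE 0.07, adjusted p = 0.011), its antagonist Mxd1, by 0.97 (SE 0.05, adjusted p = 1.11e-05), and Mxd4, by 0.30 (SE 0.05, adjusted p = 0.00824).

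Other genes of mitochondrial translation were read as well. Of 15 tested factors, Mtif3, an initiation factor, rose by 0.21 (SE 0.05, adjusted p = 0.0257), and 0 fell (limma, with 0 lower at an unadjusted p under 0.05). The share of factors that rose, 6.67%, was near the 7.39% of all genes tested. Of 72 mitochondrial ribosomal proteins 10 rose and 0 fell (limma, with 3 lower at an unadjusted p under 0.05), a share of 13.9% against the 7.39% of all genes that were higher. Only 1 of the 72 was dimmer than the median negative control on all 12 arrays. In the fit of the 13050 genes above that median on at least 6 arrays, 16.8% were higher. The 13.9% is therefore not shown to be an excess over genes of like brightness. Mrps9 rose from 9.68 ± 0.12 to 10.39 ± 0.09 (SD, n = 6, limma adjusted p = 0.000153), and Mrpl45, Mrpl3 and Mrpl15 rose by 0.36, 0.34 and 0.32. The median estimates were 0.02 for the factors and 0.04 for the ribosomal proteins.

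**Figure D4:**
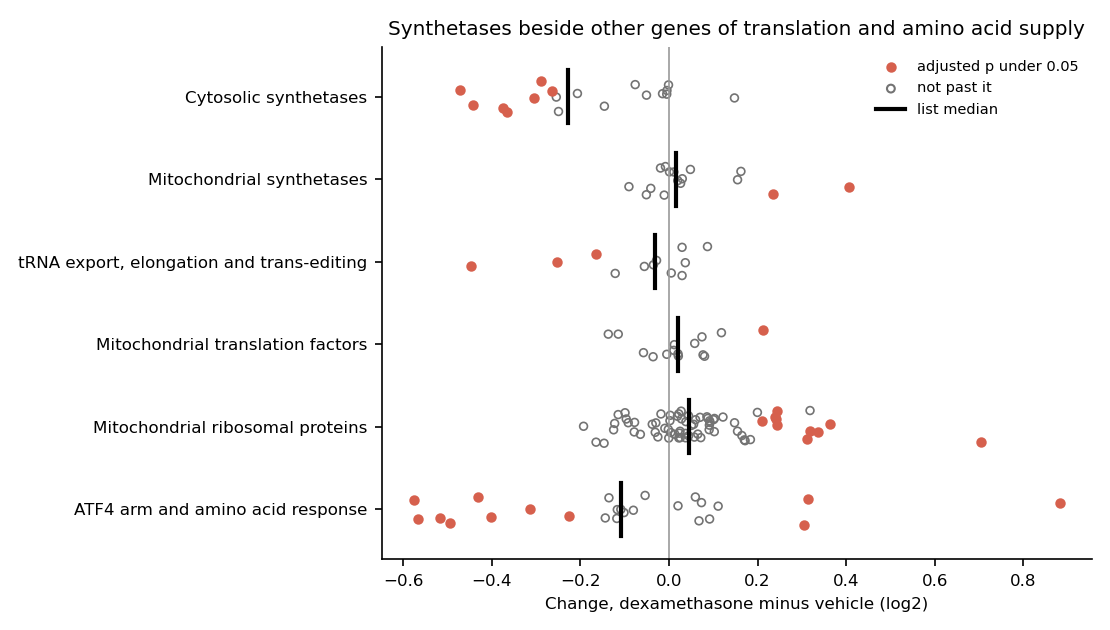
Limma estimates of the change, dexamethasone minus vehicle in log2 units, with 1 point per tested gene, filled where past the threshold, and a bar at each list's median; vertical scatter within a list has no meaning. The medians were -0.23 for the 18 cytosolic and 0.02 for the 16 mitochondrial synthetases, -0.03 and 0.02 for the tRNA and mitochondrial translation factors, 0.04 for the 72 ribosomal proteins and -0.11 for the ATF4 list.

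The change differed in size between cultures. The median change of the 18 cytosolic enzymes was -0.40 in culture 1, -0.05 in culture 2, -0.15 in culture 3, -0.17 in culture 4, -0.27 in culture 5 and -0.16 in culture 6. That of the 16 mitochondrial enzymes was -0.06, 0.04, 0.08, 0.02, -0.03 and 0.06 in the same order, so both lists were lowest in culture 1. The cytosolic median was below the mitochondrial one in 6 of 6 cultures, with differences from -0.34 to -0.09, and that of the 2 list medians over all cultures was -0.24 ± 0.08 (SD over 6 cultures). No test was run on it. In the same cultures the median over all genes tested stayed between -0.02 and 0.01.

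Markers of other cells were read beside this. Of 10 neutrophil markers 4 fell, against 4.56% of all genes tested, and 0 rose (limma). Estimates were above 0 for 3 of the 10, among them Ctsg, at 0.34 and higher in 6 of 6 cultures (limma adjusted p = 0.0969). Elane and Retnlg, which did not pass, were dimmer than the median negative control on each array, and Ltf, which fell, on 10 of the 12. The summed level of the 10 ran from 11.79 to 14.54 in vehicle and from 10.50 to 13.86 in dexamethasone (log2 of the summed linear values). The sum changed by -0.78, -1.29, -0.53, -0.34, -0.30 and -0.21 in cultures 1 to 6. S100a8 and S100a9, with vehicle means of 12.36 and 12.54, make up most of it. The median change of the 10 markers was -0.35, -0.34, -0.23, -0.22, -0.08 and -0.17 in the same order, so by that measure cultures 1 and 2 were nearly alike. Culture 2 had the largest fall of the sum and the smallest cytosolic change, and culture 1 had the next largest fall of the sum and the largest cytosolic change. Without cultures 2 and 3 the same 7 cytosolic enzymes fell, with a list median of -0.29, and in the 4 cultures left the neutrophil sum was lower too. Cultures 2 and 3 had the smallest cytosolic median changes, so leaving them out favours a lower list median. This fit therefore cannot separate the cytosolic change from the neutrophil markers. The part of the neutrophil markers in the result was not tested. The summed level of the 11 megakaryocyte markers ran from 20.59 to 20.72 in vehicle and from 20.62 to 20.77 in dexamethasone, with 2 markers higher and 1, Tubb1, lower. Pf4 and Ppbp, with vehicle means of 18.94 and 18.78, make up most of this sum, so it says little of the other markers. Tubb1 differed by -1.14 (SE 0.06, limma adjusted p = 4.71e-06), lower in 6 of 6 cultures. Of 5 stem and progenitor markers 2 rose, against 7.39% of all genes tested, with summed levels of 13.21 to 13.59 in vehicle and 13.29 to 13.65 in dexamethasone. Of these 5, Flt3, which rose, and Hlf and Mecom were dimmer than the median negative control on each array, and Cd34, which did not pass, was at 13.33 and 13.46 and so makes up most of the sum. The other that rose was Kit. Among the other lists, 1 of 2 tested erythroid markers fell (Hemgn, -0.50). Of 5 mast cell and basophil markers 1 rose (Cpa3, 0.64) and 1 fell (Mcpt8, -0.28). Over all genes tested 4.56% were lower and 7.39% higher. The mast cell and basophil sum changed by 0.09, 0.35, 0.39, 0.40, 0.16 and 0.39 in cultures 1 to 6. The part of these markers in the result was not tested either. Of monocyte markers 0 of 7 passed, and of lymphocyte markers 0 of 5 (limma, with 2 lower in each at an unadjusted p under 0.05).

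**Figure D5:**
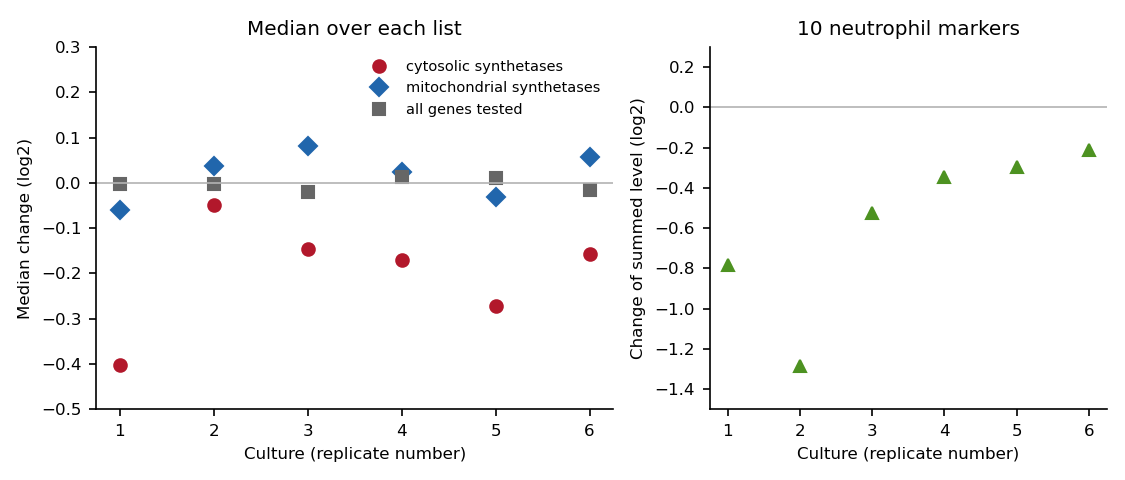
Left, median change (log2) by culture over the 18 cytosolic synthetases, the 16 mitochondrial ones and all genes tested; right, change of the summed level of 10 neutrophil markers (log2) in the same cultures. The cytosolic points lie below the mitochondrial ones in all 6 cultures. The neutrophil sum, mostly S100a8 and S100a9, is lower in all 6, most in cultures 2 and 1, which have the smallest and the largest cytosolic change.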

How the data were processed

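RNA from both portions of 6 cultures was labelled with biotin and hybridised to 1-colour mouse arrays, per the labels' protocols. The deposited log2 values, made by the authors, were used as they stand, since array medians lay within 0.0992 of each other; their background correction, summarization and normalization were not given. Of 72688 probe sets, 30604 carried exactly 1 symbol, brought up to date by gene ID through RefSeq (GRCm38.p6). A gene was tested if above its array's 25th percentile on at least 6 arrays. The linear model of limma 3.58.1 (R 4.3.3) held treatment and culture, with empirical Bayes moderation and Benjamini-Hochberg adjustment over 24265 genes. It was also run on data simulated from the same model. That run was required to recover only changes larger than those of the members, so it does not vouch for changes of their size. Culture was a block because the labels say that each culture was split. Deviations of arrays sharing a number correlated at 0.04 to 0.213, above 0.1 in 4 of 6. For only 3 of the 6 vehicle arrays was the dexamethasone array of the same number the best match. The members, lists, rule for naming genes (all members, and up to 4 called genes per further list plus those a result turns on) and tests were chosen with earlier results of these data known. Asns, Atf4, Eef1a1, Eef2, Qrsl1, Gatb and Gatc were named outside that rule, after their values were seen. Leaving out cultures 2 and 3 together was added after the data were seen. Arrays give no counts, and their number limits the precision.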

Additional observations from a re-analysis of the deposited data

Results flagged for a closer look

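In 113 sets of 6 values (each member's vehicle levels, dexamethasone levels and culture changes, and each list's culture medians), 8 held a value farther from the rest than Dixon's limit of 0.625 of the range, and chance alone gives about 1 in 20. Among the enzymes that fell, Iars was 9.76 in dexamethasone culture 6 against 9.97 to 10.07 in the others, and the change of Nars was -0.26 in culture 2 against -0.51 to -0.45. Yars, which did not pass, was 8.43 in dexamethasone culture 3 against 8.19 to 8.25, and it passed without that culture (limma adjusted p = 0.0433). Vars was 7.03 in vehicle culture 2 against 7.11 to 7.15, and Wars was 8.2 in vehicle culture 5 against 7.88 to 7.99. Of the mitochondrial enzymes, Wars2 was 6.51 in dexamethasone culture 6 against 6.3 to 6.36. The change of Yars2 was -0.35 in culture 5 against -0.07 to 0.07, and that of Vars2 was -0.08 in culture 6 against 0.00 to 0.02, where its level is below the median negative control.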

How the results depend on the processing

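Under 18 other settings, no called member changed sign. Of the 8 members that fell, 7 passed in all 18, with adjusted p of at most 0.043, and Rars was lost only with all probe sets in the fit. Of 27 members that did not pass, 22 never did, and Cars, Farsb, Yars, Sars and Tars2 passed in 1 to 6 settings. The cytosolic median stayed between -0.29 and -0.18, the mitochondrial one between -0.02 and 0.04. Counts of cytosolic enzymes lower ran from 6 to 11, with 11 after quantile normalization, and from 7 to 8 on leaving out 1 culture. Mitochondrial enzymes higher were 1 with all probe sets, without the replicate block and without cultures 2 and 3, and 1 to 2 on leaving out 1 culture. No cytosolic enzyme rose and no mitochondrial one fell in any setting. With all probe sets in the fit, 1208 genes were called, 805 higher and 403 lower. Without cultures 2 and 3 it was 1269 genes, 731 higher and 538 lower. Lower genes numbered 726 with array medians subtracted and 1738 after quantile normalization. Leaving out 1 culture gave 1878 to 2331 genes, 1164 to 1520 higher and 712 to 853 lower, with fewer samples. Without the replicate block, 2452 genes were called, 8 of them cytosolic enzymes, Cars being gained and Lars2 lost among the members. Apart from fewer samples or more probe sets tested, the cause of these differences was not tested. Signals near background limit what can be said of Aars2, Vars2 and Pars2, which the filters at the 50th percentile or the negative control median removed in part or whole.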
